A study of Mus musculus with 2 samples.

Results

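Numbered zinc finger genes are the mouse genes named Zfp followed by a 3-digit number, most of which encode zinc finger proteins of the C2H2 type. They were taken from 2 microarrays as genes with a probe that the scanner software called well above background on both, and each gene was read from its probe of highest mean signal across the pair. The array held 456 probes for 292 genes of this name pattern. Of these genes, 195 passed and are the members described here, out of 18267 genes measured on both arrays. The detection calls and the mean signal chose the members, while the difference between the arrays did not, except that a gene seen on 1 array only could not enter.

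Each array measured RNA from sorted bone marrow LSK cells, the lineage-negative, Sca-1-positive and c-Kit-positive fraction that holds blood stem cells and early progenitors. The decitabine (DAC) array held cells of mice treated with this cytosine analogue, which traps DNA methyltransferases, and the PBS array held cells of mice given phosphate-buffered saline. Both came from C57BL/6 secondary recipients of a transplanted myelodysplastic syndrome (MDS) of genotype Tet2KD/KD Ezh2Δ/Δ, 10 weeks after transplantation and 7 weeks after treatment. The cells on both arrays thus carried the same altered alleles of Tet2, which encodes an oxidase of methylated cytosine, and Ezh2, which encodes a Polycomb histone methyltransferase, and no array of cells without them was analysed here. The number of mice behind each array is not given in the sources used here. With 1 array per treatment there was no test, no p-value and no spread between animals, so "higher" and "lower" below say how the DAC array compared with the PBS array, and values with DAC or with PBS are those of these arrays.

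C2H2 zinc finger genes form one of the largest families of DNA-binding proteins in mammals, and many lie side by side in chromosome clusters that grew by duplication. A large part of the family carries a KRAB domain, which recruits the co-repressor TRIM28 and through it the histone methyltransferase SETDB1 to silence endogenous retroviruses and imprinted regions. Other members without a KRAB domain work in blood cell fate, cell division, ribosome assembly and RNA processing. The neighbouring fingers of a C2H2 protein are joined by a conserved linker, so that the same stretch of bases recurs within a gene and among relatives.

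The values are log2 processed signals from which each array's 75th percentile was subtracted, taken over the 25404 probes called on both arrays, so that 0 stands for that percentile. A signal also depends on the probe's own sequence, and values are therefore compared between the arrays for 1 probe and not between genes. Of 55680 probes, the share called well above background was 56.8% with DAC and 48.5% with PBS. No member probe was saturated on either. The LSK defining markers were present: Kit had 2.64 with DAC and 2.52 with PBS, and Ly6a, which encodes Sca-1, had 0.67 with DAC and 0.60 with PBS. Of the 9 LSK markers used, 8 were measured and 1, Slamf1, was not well above background on either array. The list's median difference was 0.09: Hlf and Procr were at least 2-fold higher with DAC, and the other 6 lay within 2-fold, between −0.32 for Meis1 and 0.71 for Mecom. Of 9 mature lineage markers, 7 were measured on both arrays, Klrb1c on the DAC array only, and Cd8a on neither. The measured lineage markers summed, on the linear scaled signal, to 55.0 with DAC and 76.1 with PBS, and their part in the results was not tested. Of 6 stromal and endothelial markers, Pecam1 differed by 2.95 and Cxcl12 by −1.42, Col3a1 was detected only with PBS, and Col1a1, Cdh5 and Lepr on neither array.

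Members were spread to both sides of no difference. Of the 195 members, 26 were at least 2-fold higher on the DAC array, which is 13.3% of members beside 10.0% of all measured genes, and 22 were at least 2-fold lower, 11.3% beside 6.83%. The other 147 lay within 2-fold. At 4-fold, 4 members were higher beside 1.86% of all genes, and 4 were lower beside 1.29%. The members' median log2 difference, DAC minus PBS, was −0.08, against 0.02 over all genes, and the SD over members was 0.96, against 0.81 over all genes. In sorted cells in bulk, fewer cells of a type and less RNA per cell cannot be told apart behind any of these differences.

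Which side held more of the calls turned with the scaling. Taking the 75th percentile over all probes gave 22 members higher and 31 lower, beside 7.31% and 10.1% of all genes. The median of detected probes gave 24 higher and 28 lower, beside 7.89% and 9.30% of all genes. Quantile normalization gave 19 higher and 31 lower (all genes 7.37% and 10.1%), loess 22 and 28 (8.30% and 8.33%), and the series matrix 22 and 31 (7.32% and 10.1%). Background correction by normexp moved the higher count most among the settings named here: 7 members were then 2-fold higher and 16 lower, beside 3.96% and 4.13% of all genes. The members' median minus that of all genes was −0.10 as reported and ran between −0.11 and −0.06 under these alternatives, and the share of calls on each side depended on the setting. The 7 members at least 2-fold higher under all 8 alternatives of background correction, scaling, source and probe were Zfp131, Zfp160, Zfp260, Zfp395, Zfp668, Zfp865 and Zfp932. A further 14 were 2-fold lower under all 8, among them Zfp646, Zfp423, Zfp433 and Zfp960. The share of all measured genes that passed under all 8 was not computed. Every alternative except the mean over probes put the median of all genes below the reported 0.02, which favours lower calls. Some alternatives also gave nearly the same values, so the 8 are not independent.

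**Figure D1:**
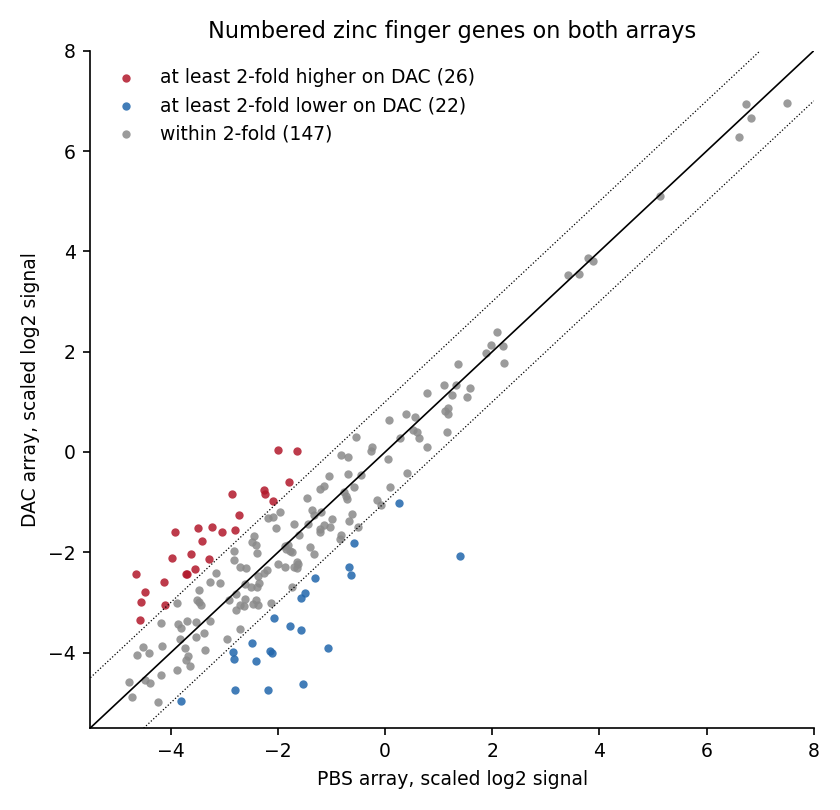
Scaled log2 signal of the 195 members on the DAC array (vertical axis) against the PBS array (horizontal axis), 1 point per gene. The solid line marks equal signals and the dotted lines a 2-fold difference: 26 members lie above the upper dotted line, 22 below the lower one, and they gather at low signals.

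The width of the members' spread depended on their signal. When all 18267 genes were split by mean signal into 3 tiers of equal size, 74 members fell in the dim tier, 78 in the middle tier and 43 in the bright tier. In the dim tier 36.5% of members were past 2-fold in either direction, against 22.6% of all genes there. In the middle tier the shares were 24.4% of members and 22.1% of all genes, and in the bright tier 4.65% of members and 5.85% of all genes. Over the whole range the share past 2-fold either way was 24.6% of members, against 16.9% of all genes. No bright member was 2-fold higher on the DAC array, and the 2 bright members that were 2-fold lower were Zfp646 and Zfp655. Zfp655 had 3 measured probes, of which the brightest differed by −1.28, the next by 0.09 and the remaining one by 0.49. Probes printed several times gave a measure of the scanning and printing error alone: the SD of a DAC minus PBS difference over repeat spots had a median of 0.26 in the dim tier, 0.14 in the middle and 0.09 in the bright tier. Animals, sorting, RNA extraction and amplification are not part of that error.

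**Figure D2:**
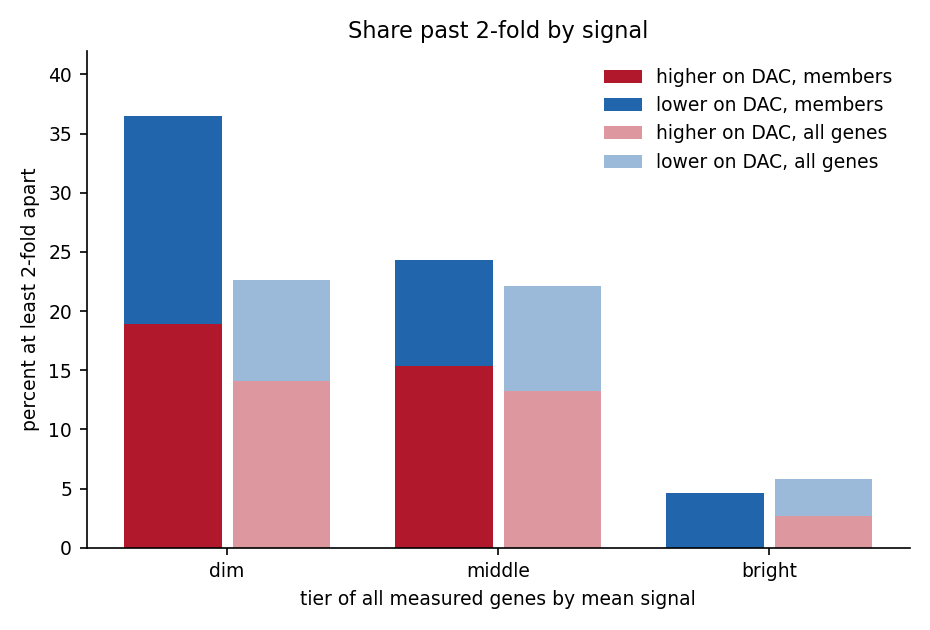
Percent of genes at least 2-fold apart between the arrays, stacked as higher and lower on the DAC array, for members (left bar of each pair) and all measured genes (right bar) in the dim, middle and bright tiers of mean signal. Members reach 36.5% in the dim tier and 4.65% in the bright tier, and all genes 22.6% and 5.85%.

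Among the members higher on the DAC array, the largest difference belonged to Zfp932, a KRAB gene known in mouse embryonic stem cells to repress endogenous retroviruses. Zfp932 had −1.60 with DAC and −3.93 with PBS, a difference of 2.32. Zfp276 came next, at −2.42 with DAC and −4.65 with PBS, a difference of 2.22. The PBS value of Zfp276 lay near the lowest signal still called on that array, −4.93, while the lowest called signal with DAC was −5.18. Zfp865 stood at 0.04 with DAC and −1.998 with PBS, a difference of 2.04, but its other measured probe differed by 0.23. Zfp260, which encodes a cardiac transcription factor that works with GATA4, stood at −0.83 with DAC and −2.86 with PBS, a difference of 2.04. For Zfp260 both signals were well clear of the detection limit, and the difference lay between 1.38 and 2.04 under the 8 alternatives. Zfp160 differed by 1.97, Zfp362 by 1.87, Zfp866 by 1.74, Zfp449 by 1.69, Zfp395 by 1.67 and Zfp790 by 1.65.

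Among the members lower on the DAC array, Zfp646 stood apart. It had −2.08 with DAC and 1.40 with PBS, a difference of −3.48, the largest of any member in either direction, and its values over the 8 alternatives ran between −3.68 and −2.98. Zfp423, an EBF1 partner known for its part in fat cell commitment, had −4.62 with DAC and −1.54 with PBS, a difference of −3.08. Zfp433 had −3.90 with DAC and −1.07 with PBS, a difference of −2.83. Zfp960 had −4.75 with DAC and −2.18 with PBS, a difference of −2.57. The DAC values of these genes other than Zfp646 lay towards the detection limit, while their PBS values did not. The next lower members were Zfp777 at −1.98, Zfp786 at −1.94, Zfp296, a gene active in pluripotent cells, at −1.90, Zfp286 at −1.82, Zfp808 at −1.80 and Zfp946 at −1.75. Of these 10 lowest members, each was read by 1 measured probe, so no second probe bears on them.

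**Figure D3:**
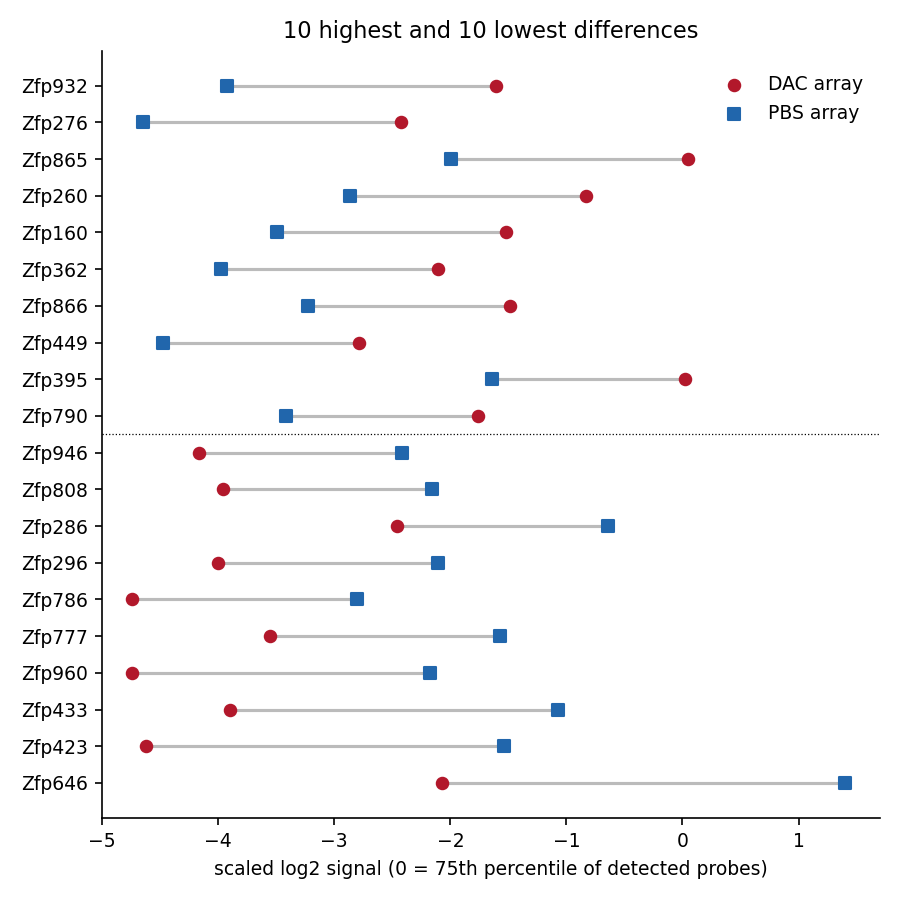
Scaled log2 signal on the DAC array (circles) and the PBS array (squares) for the 10 members with the highest differences, above the dotted line, and the 10 with the lowest, below it. Zfp646 has the longest bar, with −2.08 with DAC and 1.40 with PBS.

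The probes behind the ends of this range are shown as 30-base windows of the 60-base probes, because a probe's difference is only as specific as its sequence. Capitals mark bases of a 16-base word that also occurs, on the same strand, in a probe of another gene on the array. The rest is in lower case. Positions are those of the whole probe on mm9, as the files give them. No annotation of that build was used here, so the part of the gene under a probe is not stated. Zfp932 (chr5:110439205-110439264, plus strand), Zfp423 (chr8:90210329-90210388, minus strand), Zfp276 (chr8:125793385-125793444, plus strand) and Zfp646 (chr7:135025776-135025835, plus strand) read as follows.
Zfp932: agtgtggcctttctggcatagatgtggtgt
Zfp423: ggacaaaatctacgactgctcgcagtgccc
Zfp276: ggcacctgtaagagCTGCTGGGAAGAGGGG
Zfp646: agggtttctcaaacCTCATGTCACTCAAGA
The Zfp932 and Zfp423 probes shared no 16-base word with any other gene's probe, and those of Zfp276 and Zfp646 shared one with 1 probe each.

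Members with known roles were grouped by a list drawn up with earlier results in view. Of 8 genes known for silencing of repeats or imprinted regions, 5 were members. Of these, 2 were at least 2-fold higher and none lower, beside 10.0% and 6.83% of all measured genes. Besides Zfp932 the other was Zfp809, which in mouse embryonic cells binds the primer binding site of murine leukaemia viruses and recruits TRIM28. Zfp809 had −2.13 with DAC and −3.29 with PBS, a difference of 1.16, and its other probe gave 1.19. Both probes of Zfp809 thus placed it about equally far apart, though with the normexp background its difference was 0.60. Zfp445, which guards imprinted regions, differed by −0.05. Zfp638, which silences unintegrated retroviral DNA in human cells, differed by 0.0018, but the files give it another name and it is not a member. Zfp644, a partner of the methyltransferase G9a, differed by −0.80 and Zfp708, which keeps a retroviral repeat methylated in mouse oocytes, by −0.58. Zfp568, which represses placental Igf2 transcription, was detected only on DAC, where it was at least 5.37-fold higher, and Zfp819 on neither array.

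Of 9 genes known for work in blood, immune or mesenchymal cells, 7 were members. Of these, 1 was higher and 1 lower by 2-fold, beside 10.0% and 6.83% of all measured genes. Zfp410, which in red cell precursors restrains fetal globin by way of CHD4, was the higher one, with −0.97 with DAC and −2.09 with PBS. The difference of Zfp410 ran between 0.81 and 1.12 over the 8 alternatives and was past 2-fold in 1 of them. Zfp423 was the lower one. Zfp384 differed by −0.68, Zfp652 by −0.71, Zfp148 by −0.89, Zfp467 by 0.52 and Zfp318, which controls IgD transcripts in B cells, by 0.79. Zfp652 was uncertain, since another of its probes differed by 2.66 in the opposite direction. Zfp148 and Zfp318 were uncertain too, as their other probes differed by −0.01 and −0.08. Zfp521, a regulator of stem cell differentiation, and Zfp335, needed for T cell maturation, were detected only on DAC. Zfp521 was at least 1.31-fold and Zfp335 at least 3.62-fold higher there.

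Genes of cell division and genome upkeep went both ways. Zfp668, which takes part in DNA damage repair, had −0.85 with DAC and −2.25 with PBS, a difference of 1.40. Zfp827, which recruits the NuRD complex to telomeres, had −3.32 with DAC and −2.07 with PBS, a difference of −1.25, but its other probe differed by 0.91. Zfp207, a spindle protein, differed by −0.42 with one probe and 0.04 with the other. Zfp830 differed by 0.56 and the SUMO ligase Zfp451 by 0.87. Zfp365, which protects genome stability, was detected only on PBS and was at least 2.81-fold lower with DAC. Of 6 general transcription regulators, 2 were 2-fold higher, Zfp260 and Zfp131, beside 10.0% of all measured genes. Zfp131 had −0.77 with DAC and −2.27 with PBS, a difference of 1.4997. The other 4 lay within 2-fold: Zfp143, an activator at promoters, at −0.44, Zfp281 at −0.84, Zfp292 at 0.75 and Zfp326, a splicing regulator, at 0.69.

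Of the 3 genes of ribosome work, Zfp622, which matures the large ribosomal subunit, differed by −0.36 and Zfp593, which acts in the assembly of the same subunit, by −0.78. Zfp598, a ubiquitin ligase that senses collided ribosomes, was detected with DAC alone, at least 3.08-fold higher. Among signalling genes, the neurotrophin receptor partner Zfp110 was higher with a difference of 1.22, while its relative Zfp369 differed by −0.19 with one probe and 2.67 with the other. Zfp346, which binds double-stranded RNA, differed by 0.27, and Zfp703 was detected with DAC alone, at least 1.57-fold higher. In each of these lists at most 2 members were past 2-fold, but the lists are small. The members higher and lower were 2 and 0 of 5 for silencing, 1 and 1 of 7 for blood, and 1 and 1 of 5 for cell division. They were 2 and 0 of 6 for general transcription, 1 and 0 of 3 for signalling and 0 and 0 of 2 for ribosome work. Of all measured genes, 16.9% were past 2-fold either way.

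The 8 members of highest mean signal were close to equal on both arrays. Zfp663 had 6.96 with DAC and 7.49 with PBS, a difference of −0.53. Zfp457 had 6.94 with DAC and 6.74 with PBS, a difference of 0.20. Zfp791 differed by −0.16, Zfp628 by −0.32, Zfp872 by −0.02, Zfp488 by −0.08, Zfp282 by 0.08 and Zfp408 by −0.09. The largest difference among the 12 members of highest signal was that of Zfp663. Their probes often shared sequence: 10 of these 12 shared a 16-base word with probes of other genes, against 2 of the 12 members of lowest signal. The Zfp663 probe (chr2:165176974-165177033, minus strand) carried a CA repeat of 33 bases and shared words with 36 probes of other genes. The Zfp791 probe (chr8:87633108-87633167, minus strand) carried a TG repeat of 17 bases and shared words with 76. The windows of these probes that hold the most widely shared words are shown with that of Zfp408 (chr2:91483850-91483909, minus strand), which shared words with 16 probes of other genes.
Zfp663: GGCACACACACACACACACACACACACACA
Zfp791: aactcagAGATGTGTGTGTGTGTGTGTTTT
Zfp408: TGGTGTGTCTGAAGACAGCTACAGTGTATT
Whether transcripts of other genes that hold these words bind the probes of Zfp663 and Zfp791 was not tested.

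A different kind of sharing came from the fingers themselves. The probes of 20 members matched, in 1 of the 3 forward frames without a stop, a set pattern for the linker between fingers or for the start or end of a finger. The patterns were narrow, so probes over fingers of another sequence were not counted. The Zfp423 window above, for example, encodes a cysteine pair like that of a finger start but matched no pattern. Of these 20 probes, 14 shared a 16-base word with other genes' probes, and 11 shared one with another numbered zinc finger gene. The Zfp947 probe (chr17:22282838-22282897, minus strand) shared words with 27 probes, 11 of them of numbered zinc finger genes, and the Zfp936 probe (chr7:50445732-50445791, plus strand) with 27, 8 of them of such genes. Their windows are shown because both hold the linker, whose bases the relatives have in common.
Zfp947: AAACATCAGAGAATTCATACAGGAGAGAAA
Zfp936: AAAGAACACATACTGGAGAGAAACCTTACA
Zfp947 had 1.15 with DAC and 1.25 with PBS, and Zfp936 had 0.28 on both. Of these 20 probes, the only one past 2-fold was that of Zfp790, and it shared no word with another gene.

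Over all members, 51 probes (26.2%) shared a 16-base word with another gene's probe, against 20.4% over all measured genes. Those sharing with 5 or more probes numbered 18 (9.23% of members, against 4.60% of all genes). None of these 18 was past 2-fold, and their SD was 0.31, against 0.96 over all members. The part of shared words in that small spread was not tested. Leaving out all 51 members with a shared word, an alternative chosen after seeing the data, left 144 members, of which 23 were 2-fold higher and 15 lower, 15.97% and 10.4%. Over all genes with unshared probes the shares were 11.2% higher and 7.55% lower.

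**Figure D4:**
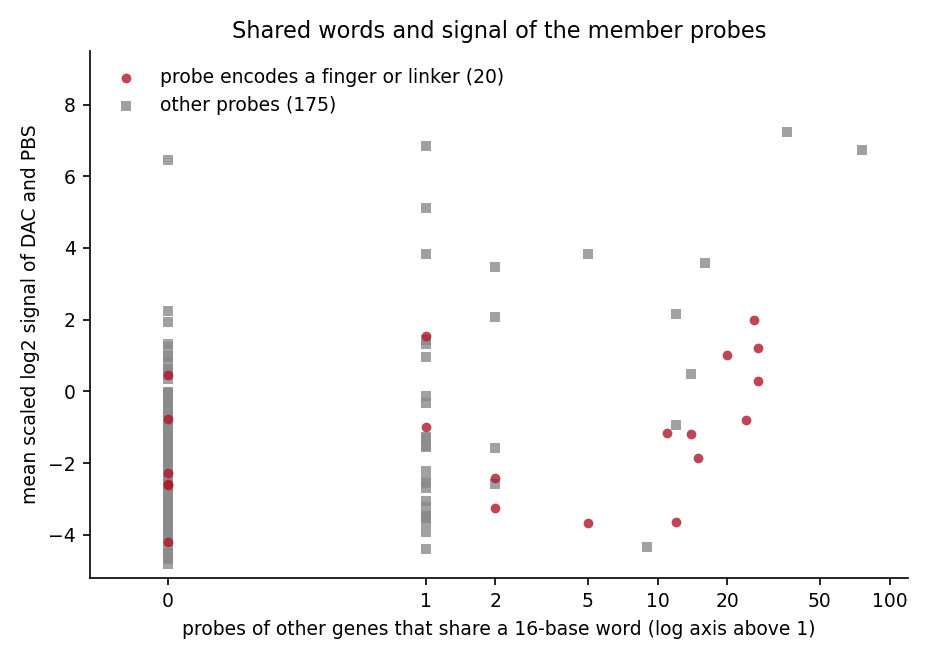
Mean scaled log2 signal of each member's probe over both arrays (vertical axis) against the number of probes of other genes that share a 16-base word with it (horizontal axis, 0 and then a log scale). Circles are the 20 probes that match a finger or linker pattern and squares the other 175: the points with the widest sharing at the top are Zfp663 and Zfp791, and most pattern-matching probes with wide sharing lie at 11 to 27.

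Where a gene had more than 1 measured probe, its probes often disagreed. Of 61 such members, the next probe had the same sign of difference in 32 (52.5%). Of the 12 past 2-fold, the next probe had the same sign in 6 and was past 2-fold the same way in 4, namely Zfp395, Zfp407, Zfp809 and Zfp949. Zfp395, known for binding the huntingtin gene promoter, had 0.02 with DAC and −1.64 with PBS, and its next probe differed by 2.68, though 1 of its 4 probes differed by −1.74. Zfp949 had −2.30 with DAC and −0.67 with PBS, a difference of −1.63, and its next probe gave −1.11. Zfp790 was the reverse case, with 1.65 by one probe and −1.67 by the other, and its mean over probes was −0.01. One probe of Zfp169 was printed 10 times: its spots ran between −3.06 and −2.73 with DAC and between −4.53 and −4.11 with PBS, with no overlap. That probe differed by 1.38, while the brighter probe that stands for Zfp169 differed by −0.12. A probe of Zfp637, also printed 10 times, ran between −4.43 and −3.94 with DAC and between −5.49 and −4.34 with PBS, and these ranges overlapped. Over the 61 genes, the differences of the first and next probe lay within 0.26, the median SD over repeat spots in the dim tier, of each other in 16 and farther apart in 45, with a median gap of 0.77. Which transcripts each probe reads was not tested.

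Grouping by position gave 18 chromosome clusters with 93 members. A cluster was a run of name-pattern genes on the array whose neighbours lay at most 1 Mb apart on mm9, with at least 3 members. Clustered members were past 2-fold in 14 cases higher and 10 lower (15.1% and 10.8%), and members outside clusters in 12 and 12 (11.8% each), beside the same 10.0% and 6.83% of all genes. The median difference was positive in 8 of the 18 clusters. With the 75th percentile over all probes it was positive in 4. The clusters whose median stayed positive under all 8 alternatives were those on chromosome 8, the later one on chromosome 9 and 2 of the 7 on chromosome 7.

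The chromosome 8 cluster (chr8:71752264-72285409) had 3 members and the highest median, 1.27, which ran between 0.57 and 1.27 over the alternatives. Zfp866 had −1.49 with DAC and −3.23 with PBS, a difference of 1.74, and all 3 of its probes were higher on the DAC array, by at least 0.95. Zfp869 had −2.43 with DAC and −3.70 with PBS, a difference of 1.27. The remaining member, Zfp930, had 0.87 with DAC and 1.18 with PBS, a difference of −0.31, and its finger probe shared words with 20 probes of other genes. The later chromosome 9 cluster (chr9:21859904-22081560) had a median of 0.67 over 4 members. Its member Zfp809 differed by 1.16 and Zfp810, with −3.36 with DAC and −4.57 with PBS, by 1.21. Zfp872 in the same 222 kb differed by −0.02. Neighbours in a cluster thus stood on both sides of the 2-fold limit.

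Chromosome 7 held 49 members in and out of its 7 clusters, 9 of them 2-fold higher and 5 lower (18.4% and 10.2%, beside 10.0% and 6.83% of all measured genes). Its last cluster (chr7:134381189-135025835) held 10 members with a median of 0.28 and the widest range of any cluster. Its neighbouring members Zfp668 and Zfp646 differed by 1.40 and −3.48. A shorter cluster (chr7:30614327-30946346) held Zfp260 and Zfp790 on the higher side and Zfp566, with −3.81 with DAC and −2.49 with PBS, at −1.32. In the first (chr7:4871046-5005178) Zfp865 at 2.04 contrasted with Zfp524 at −0.37. The highest members of the other chromosome 7 clusters were Zfp444 at 0.49, Zfp110 at 1.22, Zfp111 at 1.57 and Zfp715 at 0.39, and the lowest were Zfp787 at −1.23, Zfp606 at −0.43, Zfp114 at −0.23 and Zfp719 at −0.74. The value of Zfp787 was uncertain, as its next probe differed by 0.70 and its mean over probes was −0.15.

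Clusters with members mostly on the lower side included those of chromosomes 4, 13 and 17. On chromosome 4 (chr4:146162816-147197157) all 3 members were lower, with a median of −0.90, Zfp933 lowest at −0.98 and Zfp534 at −0.08. The larger chromosome 13 cluster (chr13:67139715-67927746) had 6 of 7 members lower, a median of −0.54 and Zfp953 lowest at −1.36. Zfp457 was its highest member. In the smaller one Zfp935 was at 0.59 and Zfp808 at −1.80. On chromosome 17 the cluster at chr17:32910629-33768635 had all 4 members lower, from Zfp799 at −0.84 to Zfp414 at −0.04. The medians of the chromosome 4 cluster, both chromosome 13 clusters and this one stayed negative under all 8 alternatives. The other chromosome 17 cluster (chr17:21179366-23693921) held 10 members, 5 on either side of 0, with Zfp160 at 1.97 and Zfp946 at −1.75.

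The clusters left had medians between −0.30 and 0.19. In these, the highest and lowest members were Zfp120 at 0.30 and Zfp442 at −0.44 on chromosome 2, Zfp212 at 0.59 and Zfp777 at −1.98 on chromosome 6, Zfp266 at 0.08 and Zfp560 at −1.14 on chromosome 9, and Zfp251 at 1.44 and Zfp647 at −0.23 on chromosome 15. Zfp777 and Zfp786, both about 4-fold lower on the DAC array, lie in the chromosome 6 cluster, whose other 6 members ran between −0.16 and 0.59.

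**Figure D5:**
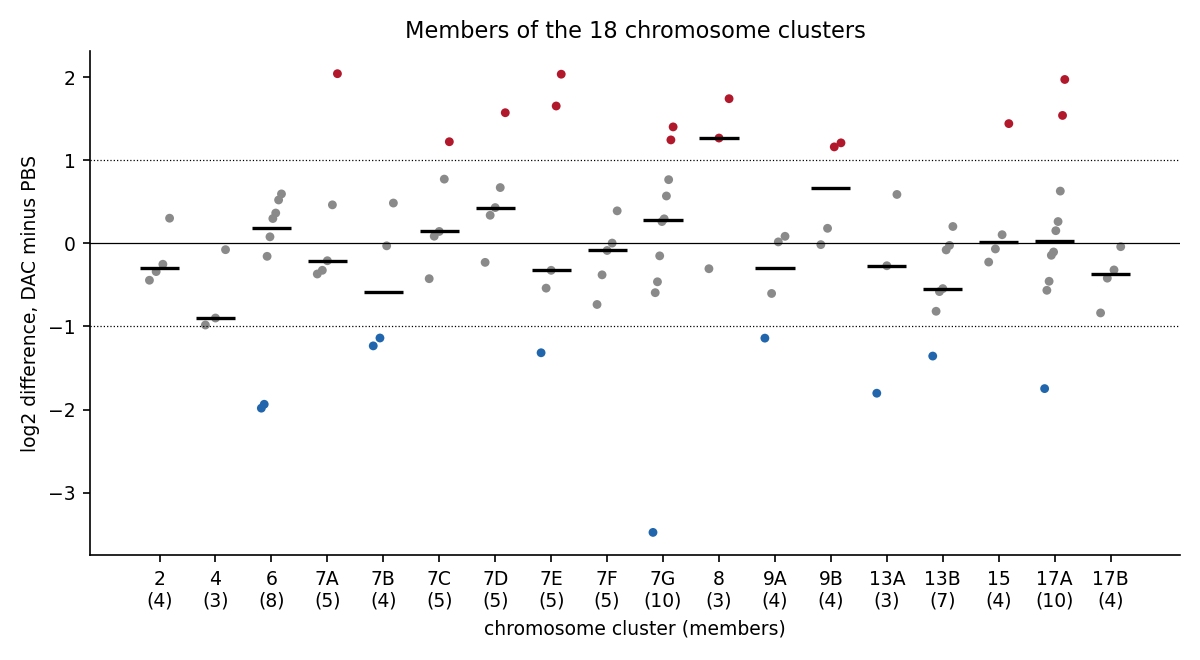
Log2 difference, DAC minus PBS, of each member (points) in the 18 chromosome clusters, with the cluster median as a black bar. Clusters are named by chromosome, with letters along the chromosome, and the number of members stands in brackets: the chromosome 8 cluster has the highest median, 1.27, and the chromosome 4 cluster the lowest, −0.90.

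Promoters of 161 members were found in the RefSeq table of the mouse assembly GRCm38.p6, each from 250 bases before to 50 after the start of the gene. CpG dinucleotides, the sites of DNA methylation, numbered a median of 16 per member promoter (2 to 59), against 20 over 8437 measured genes with a promoter. Members with fewer than 10 CpG had a median difference of −0.09 (44 members, 7 higher and 5 lower by 2-fold), those with 10 to 19 CpG −0.12 (61 members, 7 and 5), and those with 20 or more 0.08 (56 members, 4 and 8). Over all measured genes the medians of the same classes were 0.06, 0.02 and 0.09. Of all measured genes, with or without a promoter, 10.0% were 2-fold higher and 6.83% lower. These shares were not computed by CpG class, so the members' counts by class have no background. Short motifs were sought on both strands, and each share is given for member promoters, then for those of all measured genes, then for all 27025 promoters of the table. GGGCGG, the GC box, was in 51.6%, 60.6% and 35.9%, so that members had it less often than measured genes but more often than the whole table. CCAAT was in 48.4%, 39.1% and 37.9%, and ACTACAA in 6.83%, 4.42% and 3.45%. CCGGAAG, the core of ETS sites, was in 19.3%, 17.3% and 9.12%, CACGTG in 10.6%, 10.2% and 7.24% and TATAAA in 6.21%, 7.96% and 14.2%, and for these the share of members lay within 2 percentage points of that of measured genes. These shares were not tested. Members with and without CCAAT had medians of −0.08 and −0.09.

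Words of 9 bases were then ranked by how much more often they occurred in member promoters than in those of the other 8282 measured genes, among words in at least 10 members, without regard to the differences. The first was CTTGAGTGA, or TCACTCAAG on the other strand, in 10 members (6.21%), 0.30% of the other measured genes and 0.79% of all promoters. The next was TGAGTGACA, or TGTCACTCA, in 14 members (8.70%), 0.58% of the others and 0.74% of all promoters. The third was ATTGGCTAG, which holds CCAAT on the other strand, in 10 members (6.21%), 0.68% of the others and 0.57% of all promoters. Paralogs share promoter sequence by descent, and these holders are not independent. The 10 holders of CTTGAGTGA ran between −2.83 (Zfp433) and 2.32 (Zfp932), so the word was found at both ends of the range. The 14 holders of TGAGTGACA had a median of 0.08, and the members without it a median of −0.09. Of these 14, 6 were at least 2-fold higher and 1 lower, beside 10.0% and 6.83% of all measured genes. Among the 48 other measured genes with the word, 7 were higher and 1 lower, with a median of 0.19. Whether the word bears on the differences was not tested.

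The promoters of the 18 members at least 2-fold higher for which one was found were then compared with each other. The longest word that at least 4 of them had in common, on either strand, was 12 bases long, TGTCACTCAGGC, an extension of the second word above. The word was chosen from higher members, so that its holders among them are a description and support nothing. The 4 holders were Zfp809, Zfp820, Zfp866 and Zfp869, with differences of 1.16, 1.54, 1.74 and 1.27. It was in none of the 143 promoters of members that were not 2-fold higher, in 2 of the other 8282 measured genes (Plaa at 0.81 and Gm10778 at −0.22) and in 0.041% of all promoters. Its 9-base part GTCACTCAG was in 6 members, the same 4 with Zfp939 at 1.56 and Zfp799 at −0.84, and in 47 of the other measured genes, whose median difference was 0.19. The calls of the holders were not equally firm: Zfp809 stayed past 2-fold in 2 of the 8 alternatives, Zfp820 and Zfp869 in 5 and Zfp866 in 7, and a further probe of Zfp820 differed by −0.03. The 4 promoters are printed 5′ to 3′ along the gene with the word, or its reverse complement in Zfp820, in capitals: Zfp809 (GRCm38.p6 chr9:22225453-22225752, plus strand), Zfp820 (chr17:21845710-21846009, minus strand), Zfp866 (chr8:69774862-69775161, minus strand) and Zfp869 (chr8:69716853-69717152, minus strand).
Zfp809: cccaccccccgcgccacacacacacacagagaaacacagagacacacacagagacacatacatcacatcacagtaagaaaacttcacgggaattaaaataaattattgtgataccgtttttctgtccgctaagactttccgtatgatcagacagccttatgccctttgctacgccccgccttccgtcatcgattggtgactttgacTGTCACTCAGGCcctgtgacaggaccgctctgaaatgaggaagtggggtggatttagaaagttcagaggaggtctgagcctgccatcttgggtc
Zfp820: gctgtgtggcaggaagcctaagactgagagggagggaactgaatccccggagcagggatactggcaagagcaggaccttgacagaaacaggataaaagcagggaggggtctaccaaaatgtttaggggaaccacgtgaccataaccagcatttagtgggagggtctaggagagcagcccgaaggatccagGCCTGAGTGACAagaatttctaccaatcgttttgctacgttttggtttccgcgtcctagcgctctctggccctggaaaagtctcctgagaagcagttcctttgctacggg
Zfp866: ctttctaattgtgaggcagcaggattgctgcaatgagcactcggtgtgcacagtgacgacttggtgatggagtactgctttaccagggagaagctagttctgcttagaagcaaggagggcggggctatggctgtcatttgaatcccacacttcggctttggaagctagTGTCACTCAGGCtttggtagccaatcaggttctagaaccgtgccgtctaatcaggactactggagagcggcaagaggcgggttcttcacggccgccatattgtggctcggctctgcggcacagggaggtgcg
Zfp869: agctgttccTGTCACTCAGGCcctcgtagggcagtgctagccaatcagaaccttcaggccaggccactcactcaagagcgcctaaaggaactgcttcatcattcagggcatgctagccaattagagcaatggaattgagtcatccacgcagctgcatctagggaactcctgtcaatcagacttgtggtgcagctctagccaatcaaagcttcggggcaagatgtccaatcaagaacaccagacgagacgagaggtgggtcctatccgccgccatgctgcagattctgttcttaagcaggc
The word began 44 bases before the start in Zfp809, 60 in Zfp820, 82 in Zfp866 and 241 in Zfp869, so its place varied. Zfp866 and Zfp869 are neighbours in the chromosome 8 cluster, while Zfp809 and Zfp820 lie on other chromosomes. These promoters held 11, 9, 13 and 8 CpG in the order printed, below the members' median of 16. A match of letters is no evidence of binding, and no methylation was measured here.

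Genes of the name pattern outside the members were more often on the DAC array than on the PBS array. Of 249 genes seen on at least 1 array, 41 (16.5%) were detected with DAC alone, beside 14.5% of all genes, and 9 (3.61%) with PBS alone, beside 4.33%. A further 4 were detected by a different probe on each array and 43 on neither. The imbalance was close to that of all genes and went with the larger number of probes detected on the DAC array, whose part in it was not tested. Such genes have a bound instead of a difference, set by the lowest signal still called on the opposite array. The largest bound was that of Zfp784, with −0.45 with DAC and −6.05 with PBS, at least 22.3-fold higher. Zfp105 was at least 7.90-fold higher, Zfp783 7.24-fold, Zfp654 7.22-fold and Zfp709 6.05-fold. In all, 25 of the 41 had a bound of 2-fold or more. On the other side Zfp295, with −7.11 with DAC and −3.01 with PBS, was at least 4.50-fold lower, Zfp616 4.12-fold, Zfp365 2.81-fold, Zfp651 2.47-fold and Zfp853 1.97-fold, and 4 of the 9 had bounds of 2-fold or more. How many of all genes detected on 1 array had such a bound was not computed, so these counts have no background. All bounds hold for the reported background subtraction and scaling only.

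The detection limit can be seen in the genes next to it. The 3 members of lowest mean signal were Zfp398 (−4.88 with DAC and −4.73 with PBS), Zfp653 (−4.59 with DAC and −4.77 with PBS) and Zfp719 (−4.98 with DAC and −4.25 with PBS). The 3 brightest genes that missed the call on 1 array were Zfp784, Zfp654 and Zfp709, all for their PBS signal. Zfp654 had −2.08 with DAC and −4.99 with PBS, and Zfp709 had −2.33 with DAC and −5.06 with PBS. Genes with large differences therefore lay just outside the rule as well as inside it.

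Genes of the machinery through which KRAB proteins silence DNA were read beside the members. Of a list of 25 genes for TRIM28, its complex and heterochromatin, 24 were measured, with 2 at least 2-fold higher and none lower, beside 10.0% and 6.83% of all measured genes, and a median of 0.11. Trim28 had 1.17 with DAC and 0.89 with PBS, a difference of 0.27. Setdb1 had −2.68 with DAC and −2.81 with PBS, a difference of 0.14. The maintenance methyltransferase Dnmt1 had −0.40 with DAC and −0.73 with PBS, a difference of 0.33. Trim28, Setdb1 and Dnmt1 thus lay within 2-fold. The higher ones were Atrx, a chromatin remodeller that deposits histone H3.3 with Daxx, with −0.21 with DAC and −2.10 with PBS, and Pphln1, a subunit of the HUSH silencing complex, with −0.998 with DAC and −2.31 with PBS. The probes of Atrx gave differences between 0.58 and 1.89, and both probes of Pphln1 1.31 and 1.32. Atf7ip, the partner that stabilises SETDB1, was detected with DAC alone, at least 7.39-fold higher.

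Other zinc finger families gave the members a frame. The 29 measured Zbtb genes, which pair fingers with a BTB domain, had 5 genes at least 2-fold higher and none lower (17.2% and 0%, beside 10.0% and 6.83% of all genes), and between 3 and 5 higher and up to 3 lower over the alternatives. Their median of 0.09 ran between −0.11 and 0.09. The 12 Zscan and Zkscan genes had 2 higher and 1 lower, and a median of 0.29 that ran between −0.05 and 0.36 and was positive under 5 of the 8. The 32 Zfp genes with 1 or 2 digits in the name had 4 higher and 5 lower, between 2 and 4 higher and between 3 and 9 lower over the alternatives, and a median of 0.13 that ran between −0.07 and 0.13 and was positive under 2. The 12 Klf genes had 4 higher and 6 lower, so that 2 lay within 2-fold, and their median was −0.78, between −0.98 and −0.60 over the alternatives, which left between 1 and 3 of them 2-fold higher. The numbered genes, with 48 of 195 past 2-fold, lay between the Zbtb share (17.2%) and that of the short-numbered Zfp genes (28.1%), and these differences between families were not tested.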

How the data were processed

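Total RNA of sorted LSK cells was hybridised to 2 one-colour Agilent arrays, 1 for DAC and 1 for PBS. Per the labels' protocols, the RNeasy Plus Micro kit gave the RNA, which was amplified with Cy3 by the Low Input Quick Amp kit. Per the file headers, both lay on 1 slide, carry mm9 positions and were read by Agilent Feature Extraction 10.7.3.1 (protocol GE1_107_Sep09). The deposited processed intensities were background-subtracted by that software and not scaled between arrays. The authors' deposited series matrix holds log2 values with a median of 0 per array; its differences followed the log2 processed intensities with a slope of 1 and an offset of −0.60, and the baseline taken from each probe is unknown.

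From these files, log2 values of a probe's spots were averaged and each array's 75th percentile was subtracted. A probe was called where at least 50% of its spots were. Sharing was a 16-base word in common with the probe of a differently named gene, on the same strand. All members matched the GRCm38.p6 gene table by name or accession. In 10 of the 195 the current symbol differs, and the file's name was kept. A gene detected on 1 array has a lower bound against the higher of its own signal and the lowest called signal on the other array. The steps were tested on simulated arrays. The members, role lists and word choices were made with earlier results of these data known.

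Named genes were the 10 highest and 10 lowest differences, the 8 of highest signal, each cluster's extremes, the role lists, the genes at the detection limit and the largest bounds. Genes given for other reasons (those with several probes, finger probes, shared words or promoter words) were chosen after their values were seen. Alternatives were normexp (offset 50) or no background correction, 5 other scalings or sources, the mean over probes, and other filters, names and cluster gaps. Software was R 4.3.3, limma 3.58.1, Python 3.11.15, pandas 2.3.3, numpy 2.4.6, statsmodels 0.14.6 and matplotlib 3.10.9. Only 1 array per group limits the precision of every value. The planned split by KRAB domain was not run here, as no protein table was used. Some marker genes are not reported here.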

Additional observations from a re-analysis of the deposited data

How the results depend on the processing

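No paired analysis was possible because each treatment had 1 array, and no array could be left out. Of the 48 members past 2-fold, 47 kept their sign under 8 alternatives of background correction, scaling, source and probe. The exception was Zfp790, which turned to −0.0066 with the mean over its probes. Not every alternative could turn a sign. The 75th percentile over all probes, the median of detected probes and the series matrix move all differences by a constant smaller than 2-fold. For the 36 members past 2-fold on 1 measured probe, the mean over probes was the same value. Among the 12 on several probes, the next probe had the same sign in 6. With normexp 7 members were 2-fold higher and 16 lower, and without background subtraction 8 and 16 (all genes 3.94% and 4.03%). The call positive and significant in place of well above background gave 51 higher and 29 lower of 246 genes (all genes 14.5% and 8.65%), no filter 72 and 32 of 292 (15.4% and 8.74%), the 79 members at or above the median signal 6 and 5 (5.31% and 4.61%), and the 61 members on several probes 8 and 4 (9.83% and 7.29%). The share of calls that were higher was 54.2% as reported and 30.4% with normexp. The members' median was −0.28 with the 75th percentile over all probes, −0.24 with the median of detected probes and −0.28 in the series matrix, settings that put the median of all genes at −0.18, −0.14 and −0.18. Clusters with a positive median then numbered 4, 5 and 4 of 18. Of the heterochromatin list 1 gene was 2-fold higher with normexp and 1 without background subtraction. The cause of these shifts was not tested. Signal over background limits the dim members, which hold most calls. The split by KRAB domain was not run.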
